A study of Mus musculus with 8 samples.

Results

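The genes described here encode the nuclear subunits of mitochondrial respiratory chain complexes I to V, measured in mouse germinal centre B cells. They were taken by name from the deposited expression table, as the symbols that begin with Nduf and a subunit letter (a, b, c, s or v) and number, the 4 Sdh genes, and the symbols that begin with Uqcr, with Cox4 to Cox8 or with Atp5. The rule found 85 of 23234 genes. Of these, 35 belong to complex I, 4 to complex II, 8 to complex III, 20 to complex IV and 15 to complex V (ATP synthase). The other 3, Atp5s, Atp5sl and Cox4nb, match by name and encode no subunit. In all, 79 of the 85 had at least 1 FPKM (a level scaled to transcript length and to the fragments sequenced) in at least 2 libraries and were tested. The 6 that did not are Cox4i2, Cox6a2, Cox7b2, Cox8b, Cox8c and Ndufa4l2.

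Complexes I and II pass electrons from NADH and from succinate to ubiquinone, complex III passes them on to cytochrome c, and complex IV (cytochrome c oxidase) hands them to oxygen. Complexes I, III and IV pump protons out of the mitochondrial matrix, and complex V lets the protons flow back and makes ATP. Nearly all subunits are encoded in the nucleus and imported. The few that are encoded in mitochondrial DNA were not analysed here. Germinal centre B cells divide quickly in the dark zone (DZ) and are selected for antigen in the light zone (LZ). Bach2 is a transcriptional repressor that holds B cells back from plasma cell fate, and Prdm1 encodes Blimp-1, the factor that drives that fate.

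The series holds 8 libraries in 4 groups of 2, and all were made from C57BL/6 donor B cells that carried 1 B1-8hi knock-in allele, a rearranged heavy chain for the hapten NP, and 1 ERT2cre knock-in allele, a Cre recombinase switched on by tamoxifen. The 4 groups were dKO LZ, sKO LZ, dKO DZ and sKO DZ. The dKO cells are labelled Bach2(f/f) Prdm1(f/f) and the sKO cells Bach2(+/+) Prdm1(f/f), so every group had floxed Prdm1, and cells with unfloxed Prdm1 were not analysed here. Naive cells of each genotype went into wild-type recipients that carried both the CD45.1 and the CD45.2 allele, which then received tamoxifen (3 mg for 3 days) and were immunized with NP-CGG in alum. The sort on day 10 took donor cells that bound NP, carried GL7 and lacked CD38, from the spleens of 5 recipients pooled. CD86 and CXCR4 separated the zones, with LZ cells CD86hi CXCR4lo and DZ cells CD86lo CXCR4hi. Nothing in the labels says that the 2 libraries of a group came from separate pools, and ages are not given. The p-values therefore speak of library-to-library spread, which may be technical.

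Bach2 itself was at 64.5 and 62.7 FPKM in dKO LZ and 49.8 and 53.4 FPKM in sKO LZ, and at 96.2 and 94.5 FPKM in dKO DZ and 76.2 and 74.6 FPKM in sKO DZ. This gene-level value was thus higher in the dKO libraries of both zones (adjusted p = 0.00454 in LZ and 0.00894 in DZ by limma), but it also counts exons outside the floxed part. Which exon is floxed is not given, and the value cannot check the deletion. The names dKO and sKO therefore stand for the labels throughout. Prdm1 stayed under 1 FPKM in all 8 libraries. All 9 germinal centre B cell markers were present, the summed LZ markers ranged from 518.2 to 520.1 FPKM in dKO LZ and from 582.7 to 608.3 FPKM in sKO LZ against 159.5 to 217.6 FPKM in the DZ libraries, and the Cd3 genes stayed under 1 FPKM. Lck, the T cell marker with the highest level, had 62.6 and 64.6 FPKM in dKO LZ, 58.5 and 53.0 in sKO LZ, 35.1 and 32.7 in dKO DZ and 34.0 and 34.8 in sKO DZ, and was higher in the LZ of both genotypes (adjusted p = 0.000223 in dKO cells and 0.000662 in sKO cells); its part in the zone results was not tested. Respiratory chain genes made up between 2.11% and 2.50% of all FPKM in each library. The depth behind each value is unknown, since the files give FPKM and no counts. Many respiratory chain genes have near-identical processed pseudogenes that could share reads, and the strand setting is not stated. Single levels are uncertain to that extent.

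Summed over a complex, the levels lay close together. Complex I genes summed to 2967 and 2997 FPKM in dKO LZ, 2619 and 2613 in sKO LZ, 2795 and 2821 in dKO DZ, and 2573 and 2885 in sKO DZ. Complex V genes summed to 5090 and 4875 FPKM in dKO LZ, 4286 and 4205 in sKO LZ, 4785 and 4792 in dKO DZ, and 4387 and 4735 in sKO DZ. In both complexes the dKO LZ libraries were above the sKO LZ libraries. In the DZ the dKO libraries lay between the sKO libraries for complex I and above both for complex V, where sKO DZ replicate 2 came close to them. The ratio of the dKO LZ mean to the sKO LZ mean was 1.14 for complex I, 1.07 for complex II, 1.11 for complex III, 1.09 for complex IV and 1.17 for complex V. In the DZ the same ratio lay between 1.01 and 1.05. In bulk samples such as these, fewer cells of a type and less RNA per cell cannot be told apart.

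The question put to each gene was whether the label Bach2(f/f) in place of Bach2(+/+), both with Prdm1(f/f), went with another level in either zone. Differences are in log2(FPKM + 1), with ± the standard error, a scale that understates the change of low genes, and a gene is said to have risen or fallen where limma gave an adjusted p under 0.05 over all 10610 genes tested. In the LZ, 25 of the 79 respiratory chain genes rose in dKO cells and 2 fell, or 31.6% and 2.53%, beside 18.4% and 12.7% of all genes tested. The median difference was 0.18 over the 79 genes and 0.02 over all genes, and 73 of the 79 were positive. The 2 dKO LZ libraries lay above both sKO LZ libraries for 59 of the 79 genes (74.7%, beside 36.5% of all genes) and below both for 3 (3.8%, beside 29.3%). At an unadjusted p under 0.05 the counts were 37 higher and 2 lower. The share of all genes at that threshold was not computed, so these counts have no background beside them. The largest rise, of Ndufa12, was 0.48. Upper quartile scaling left 20 respiratory chain genes higher (25.3%) and 2 lower, beside 14.6% and 17.5% of all genes, and there 45.5% of all calls were higher in place of 59.0%. With quantile normalization 14 rose (17.7%) and 2 fell, beside 15.3% and 15.1% of all genes, so that the share of rises was near the background.

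Myeloid transcripts varied between the LZ libraries, and the ranges of the genotypes overlapped. Of 4 myeloid markers tested, 1 was higher in dKO LZ than in sKO LZ and 0 were lower. The 7 myeloid markers summed to 20.4 and 141.7 FPKM in dKO LZ and to 6.42 and 50.1 FPKM in sKO LZ, with 4 of the 7 at 1 FPKM or more in at least 2 libraries, and stayed at or below 2.64 FPKM in the DZ libraries. The 5 erythroid markers summed to between 16.2 and 19.9 FPKM in dKO LZ and between 1.81 and 13.6 FPKM in sKO LZ. The 5 plasma cell markers, of which Xbp1, Igj and Irf4 are also expressed in germinal centre B cells, summed to between 367.6 and 367.9 FPKM in dKO LZ and between 309.2 and 325.2 FPKM in sKO LZ. Without dKO LZ replicate 2, which held the most myeloid transcript, the median difference of the respiratory chain genes in LZ was 0.18, with 11 genes higher (13.9%, beside 10.9% of all genes) and 2 lower. Without dKO LZ replicate 1 it was 0.16, with 9 higher (11.4%, beside 9.63% of all genes) and 2 lower, so that both shares of rises lay near the background. The germinal centre B cell markers moved between the genotypes, with 1 of 9 higher and 5 lower in dKO LZ. They summed to between 3637 and 3638 FPKM there and to between 4097 and 4229 FPKM in sKO LZ. The part of these markers and of the myeloid, erythroid and plasma cell transcripts in the result was not tested.

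In the DZ, 0 respiratory chain genes rose in dKO cells and 3 fell (Ndufa6, Cox7a2l and Atp5sl), or 0.0% and 3.8%, beside 6.63% and 5.23% of all genes tested by limma. At an unadjusted p under 0.05 the same fit had 10 higher and 4 lower, again with no share of all genes to set beside them. No call was left without either library of dKO LZ or of dKO DZ, 1 gene was higher and 1 lower without either library of sKO LZ, 1 was higher without sKO DZ replicate 2, and 2 were lower without sKO DZ replicate 1. The median difference was 0.06, and the dKO libraries lay above both sKO libraries for 24 of 79 genes (30.4%, beside 32.3% of all genes) and below both for 7 (8.86%, beside 26.3%). That median turned to -0.02 without sKO DZ replicate 1 and was 0.14 without sKO DZ replicate 2. These 2 libraries differed from each other in respiratory chain genes more than any other pair: replicate 2 was above replicate 1 in 74 of 79 genes, with a median difference of 0.14, beside 0.03 over all genes tested. In dKO LZ, sKO LZ and dKO DZ replicate 2 was the higher one in 29, 38 and 39 of 79 genes, with medians between -0.02 and -0.01.

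**Figure D1:**
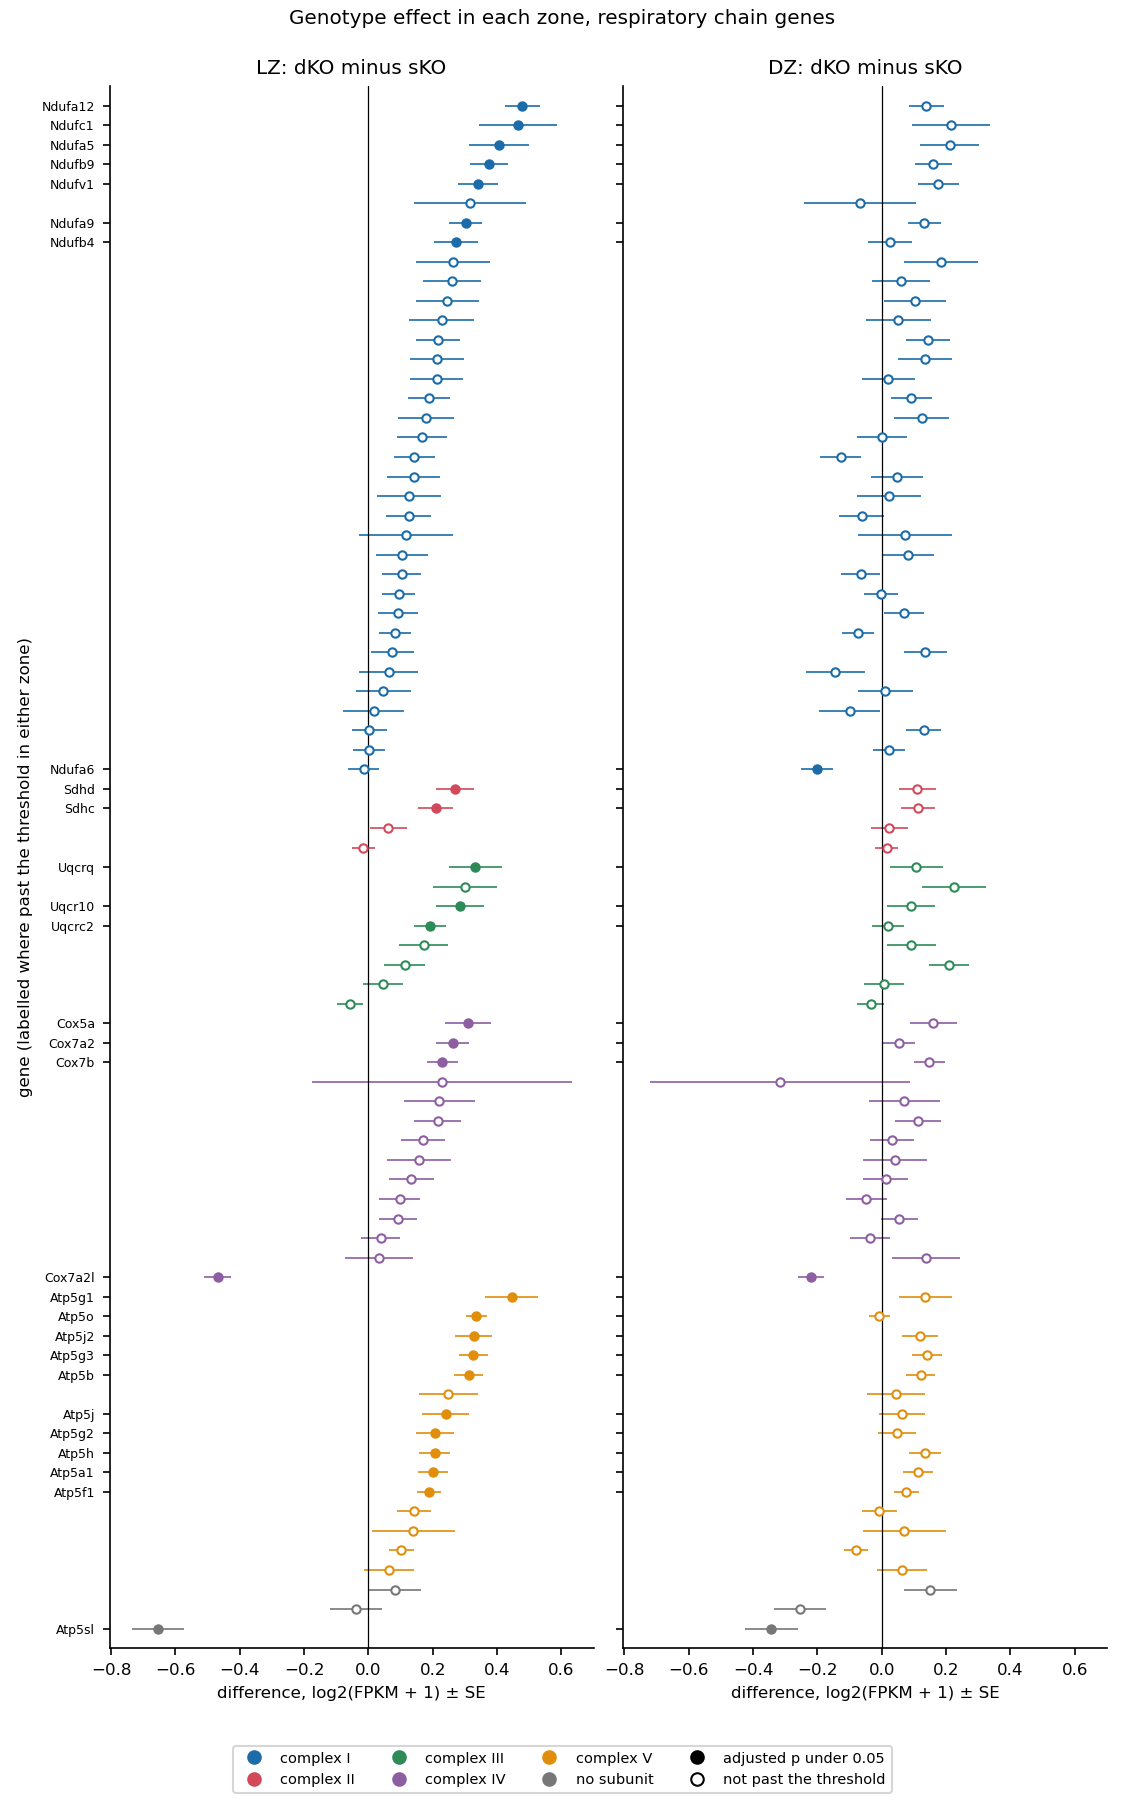
Difference between dKO and sKO cells in LZ (left) and DZ (right) for the 79 respiratory chain genes tested, in log2(FPKM + 1), with bars for the standard error and colours for the complex. Filled points passed an adjusted p of 0.05 in limma, and genes past it in either zone are labelled. In LZ 25 filled points lie right of 0 and 2 left of it; in DZ the 3 filled points lie left of it.

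**Figure D2:**
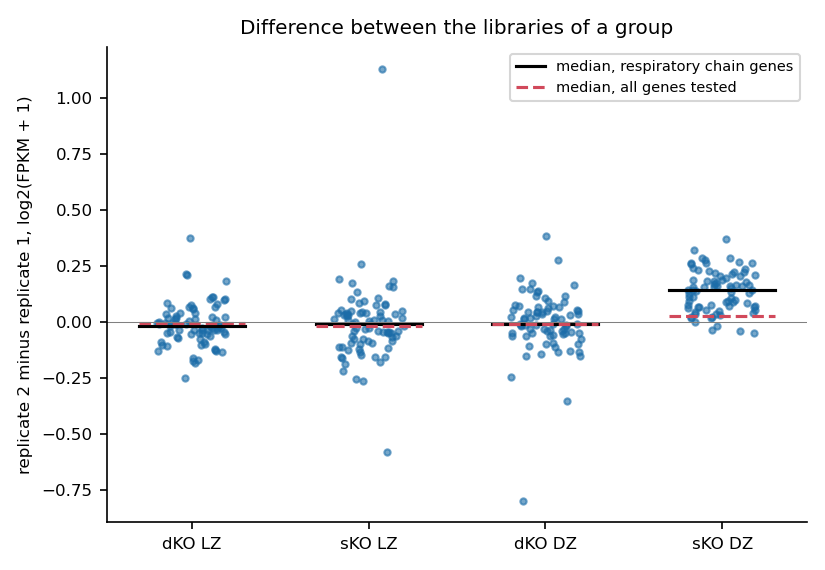
Difference between the 2 libraries of each group (replicate 2 minus replicate 1, in log2(FPKM + 1)), 1 point for each of the 79 respiratory chain genes tested. The black line is their median and the dashed line the median of all genes tested; in sKO DZ 74 of 79 points lie above 0.

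Whether the genotype difference itself differed between the zones was tested as an interaction. By limma 0 of the 79 respiratory chain genes passed, beside 0.0283% of all genes tested. At an unadjusted p under 0.05, for which the share of all genes was not computed, 13 were higher and 2 lower. The median interaction was 0.14, and it was 0.22 without sKO DZ replicate 1 and 0.05 without sKO DZ replicate 2. A rise in LZ without one in DZ, as given for the complexes, is therefore not shown to differ between the zones. Across the 79 genes the LZ and DZ differences, which share no library, had Pearson's r of 0.65 and Spearman's rho of 0.56, given as a description over genes that share their libraries, and 59 were positive in both zones. Over all 10610 genes r was 0.30 and rho 0.71, with 4457 positive in both.

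Between the zones, 10 respiratory chain genes were higher and 9 lower in the LZ than in the DZ of dKO cells, or 12.7% and 11.4%, beside 18.0% and 16.1% of all genes tested (34.1% in either direction). The dKO LZ libraries lay above both dKO DZ libraries for 38 of the 79 (48.1%, beside 37.7% of all genes) and below both for 19 (24.1%, beside 35.5%). In sKO cells 2 were higher and 15 lower in the LZ, or 2.53% and 19.0%, beside 15.2% and 16.1% of all genes (31.2% in either direction). The sKO LZ libraries lay above both sKO DZ libraries for 8 of the 79 (10.1%, beside 32.7% of all genes) and below both for 32 (40.5%, beside 33.1%). In both genotypes the lower counts include Cox6b2, which passed the filter on low values only through its DZ libraries. The medians were 0.07 in dKO cells and -0.07 in sKO cells. Of 4 myeloid markers tested, 3 were higher in the LZ of dKO cells and 0 in the LZ of sKO cells. Their part in the zone results was not tested. Leaving out sKO DZ replicate 1 gave 1 higher and 22 lower in sKO cells with a median of -0.13, and leaving out sKO DZ replicate 2 gave 3 higher and 7 lower with a median of -0.02. Without sKO LZ replicate 2 there were 1 higher and 10 lower, and without either dKO DZ library 2 higher and 9 lower. In dKO cells the removal of a single dKO library left 3 to 6 higher and 5 or 6 lower.

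**Figure D3:**
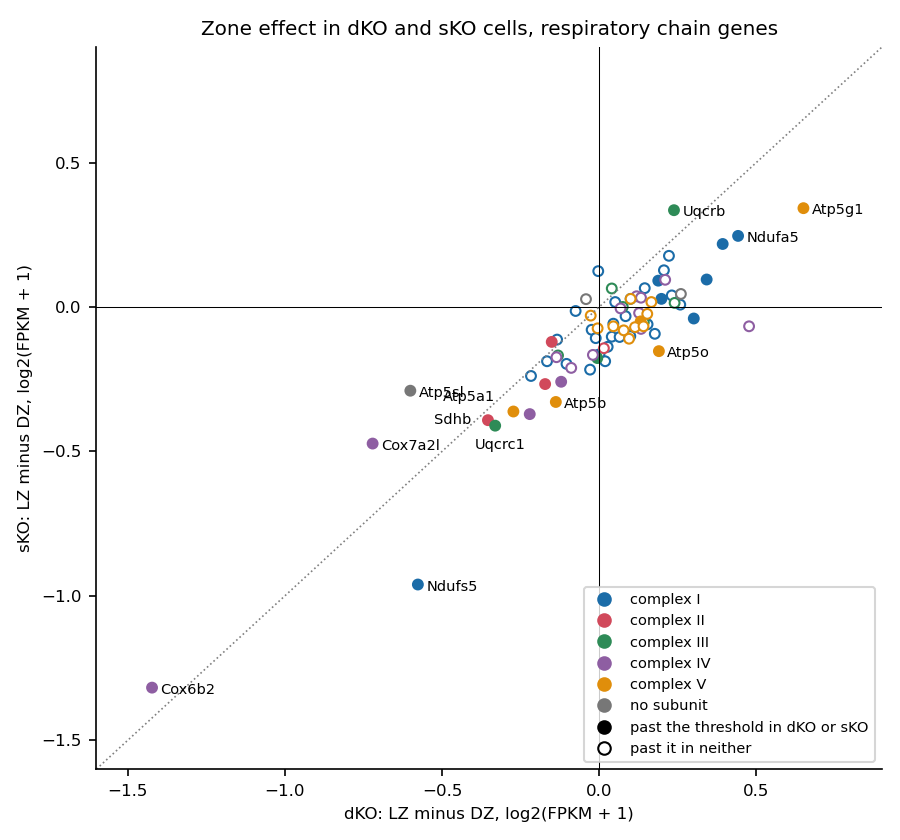
Difference between LZ and DZ in dKO cells (horizontal) and sKO cells (vertical), in log2(FPKM + 1), for the 79 respiratory chain genes tested, coloured by complex and filled where an adjusted p was under 0.05 in dKO or sKO cells. The dotted line marks equal differences. Cox6b2, Cox7a2l and Atp5sl lie farthest below 0 and Atp5g1 farthest above it on the horizontal axis. Cox6b2 passed the filter on low values only through its DZ libraries and so had to lie below 0.

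Complex I, the entry point for NADH, is built of a matrix arm, which holds the flavin and the iron-sulfur clusters, and a membrane arm, which pumps protons. Its 35 genes gave 7 rises and 0 falls in dKO LZ cells, 4 of 16 in the matrix arm and 3 of 19 in the membrane arm, with a median of 0.17. That share was near the 18.4% of all genes that rose. Of the 7 catalytic core genes Ndufv1 rose; the other 6 rises were of supernumerary subunits.

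Ndufa12, a supernumerary subunit of the matrix arm, had 99.9 and 105 FPKM in dKO LZ, 74.7 and 71.5 in sKO LZ, 79.1 and 86.8 in dKO DZ and 75.6 and 74.7 in sKO DZ. The dKO LZ libraries stood above the other 6, and the difference in LZ was 0.48 ± 0.05 (adjusted p = 0.0021). Ndufc1, a small membrane arm subunit, had 124 and 116 FPKM in dKO LZ and 80.9 and 92.5 in sKO LZ, a difference of 0.47 ± 0.12 (adjusted p = 0.0291). Ndufa5, another matrix arm subunit, had 69.6 and 71.5 FPKM in dKO LZ and 52.8 and 53.2 in sKO LZ, a difference of 0.41 ± 0.09 (adjusted p = 0.0188). For these genes the dKO LZ libraries lay above both sKO LZ libraries, as for 36.5% of all genes. That is no separate support, since the calls come from the same libraries. Ndufv1, which binds the flavin that takes the electrons from NADH, had 49.3 and 51.3 FPKM in dKO LZ and 40.3 and 38.6 in sKO LZ, a difference of 0.34 ± 0.06 (adjusted p = 0.00925). Ndufa9, Ndufb4 and Ndufb9, named after their values were seen, also rose, by between 0.27 and 0.38. Ndufv1 lost its call in LZ on leaving out dKO LZ replicate 2 (adjusted p = 0.0552). Ndufa5 lost it on leaving out either library of dKO LZ or sKO LZ (adjusted p = 0.0616 to 0.0852). Ndufb4 lost it on leaving out either library of dKO LZ or dKO DZ, or sKO LZ replicate 1 (adjusted p = 0.0506 to 0.132) and with upper quartile scaling or quantile normalization (adjusted p = 0.0629 to 0.0936). Ndufc1 lost it on leaving out either library of dKO LZ, or sKO LZ replicate 1 (adjusted p = 0.0771 to 0.129) and with no filter (adjusted p = 0.06).

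The other core genes of complex I named here did not pass in LZ. Ndufs1, the largest iron-sulfur subunit, had 39.2 and 42.0 FPKM in dKO LZ and 40.1 and 36.9 in sKO LZ (difference 0.08 ± 0.07). Its dKO and sKO libraries overlapped. Ndufs7, which carries the last iron-sulfur cluster before ubiquinone, had 68.0 and 68.6 FPKM in dKO LZ and 61.4 and 53.8 in sKO LZ (difference 0.25 ± 0.10, adjusted p = 0.101). In the DZ the one call was a fall of Ndufa6, a matrix arm subunit of the LYR family, at 78.6 and 83.6 FPKM in dKO DZ and 90.4 and 96.2 in sKO DZ, a difference of -0.20 ± 0.05 (adjusted p = 0.0464). Ndufa6 lost its call in DZ on leaving out any 1 of the 8 libraries (adjusted p = 0.0566 to 0.235) and with no filter, no intensity trend or a fit of the 4 libraries compared alone (adjusted p = 0.0674 to 0.0957).

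Between the zones, 6 complex I genes were higher in the LZ of dKO cells and 1 lower, and in sKO cells 0 were higher and 2 lower. In dKO cells these are 17.1% and 2.86%, beside 18.0% and 16.1% of all genes. In sKO cells they are 0.0% and 5.71%, beside 15.2% and 16.1% of all genes. Ndufa5 and Ndufb6, a membrane arm subunit, were higher in the LZ of dKO cells by 0.44 and 0.39 (adjusted p = 0.0125 and 0.0255). Ndufb6 had 78.5 and 69.0 FPKM in dKO LZ and 60.9 and 51.2 in dKO DZ. Ndufa12, and Ndufv2, Ndufa9 and Ndufb4, which were named after their values were seen, were higher by between 0.19 and 0.34. Ndufa5 lost its call between the zones of dKO cells on leaving out either library of dKO LZ, or dKO DZ replicate 2 (adjusted p = 0.0505 to 0.0722). Ndufb6 lost it on leaving out dKO LZ replicate 1 or dKO DZ replicate 2 (adjusted p = 0.115 to 0.125) and with no filter (adjusted p = 0.0514). Ndufv2 lost it on leaving out either library of dKO LZ, or dKO DZ replicate 2 (adjusted p = 0.0873 to 0.17) and with the replicate block or no intensity trend (adjusted p = 0.0531 to 0.0543). Ndufa9 lost it on leaving out either library of dKO LZ or dKO DZ (adjusted p = 0.0574 to 0.139). Ndufa12 lost it on leaving out dKO LZ replicate 2 (adjusted p = 0.0503). Ndufb4 lost it on leaving out either library of dKO DZ, or dKO LZ replicate 2 (adjusted p = 0.0552 to 0.0658). Ndufs5, a membrane arm subunit on the intermembrane space side, went the other way. It had 41.5 and 39.4 FPKM in dKO LZ and 61.0 and 60.5 in dKO DZ, a difference of -0.58 ± 0.17 (adjusted p = 0.0441), and 39.7 and 26.2 in sKO LZ and 59.8 and 68.0 in sKO DZ, a difference of -0.96 ± 0.17 (adjusted p = 0.00853). Every LZ library was below every DZ library, and sKO LZ replicate 2 was the lowest. Ndufb10, also of the membrane arm, was lower in the LZ of sKO cells by 0.17 (adjusted p = 0.0451). Ndufs5 lost its call between the zones of dKO cells on leaving out either library of dKO LZ, dKO DZ or sKO DZ (adjusted p = 0.06 to 0.156) and with the replicate block, no filter or no intensity trend (adjusted p = 0.0546 to 0.0863). Ndufb10 lost its call between the zones of sKO cells on leaving out either library of dKO LZ, dKO DZ or sKO DZ, or sKO LZ replicate 1 (adjusted p = 0.0621 to 0.175) and with no filter, upper quartile scaling, quantile normalization, no intensity trend or a fit of the 4 libraries compared alone (adjusted p = 0.0638 to 0.13).

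Complex II, succinate dehydrogenase, is also an enzyme of the TCA cycle and pumps no protons. In dKO LZ cells both membrane anchors rose and neither catalytic subunit passed. Sdhd had 67.7 and 67.9 FPKM in dKO LZ and 57.6 and 54.6 in sKO LZ, a difference of 0.27 ± 0.06 (adjusted p = 0.0161). Sdhc had 38.0 and 37.0 FPKM in dKO LZ and 33.9 and 30.8 in sKO LZ, a difference of 0.21 ± 0.05 (adjusted p = 0.0274). In both anchors the genotypes did not overlap, which adds no support to calls from the same libraries. Sdha, the flavoprotein that oxidizes succinate, had 84.0 and 82.3 FPKM in dKO LZ and 85.4 and 82.8 in sKO LZ (difference -0.02 ± 0.04). Sdhb, the iron-sulfur subunit, had 142 and 142 FPKM in dKO LZ and 141 and 131 in sKO LZ (difference 0.06 ± 0.06). The difference between anchors and catalytic subunits was not itself tested. Sdhc lost its call in LZ on leaving out either library of dKO LZ or dKO DZ, or sKO LZ replicate 2 (adjusted p = 0.0509 to 0.126) and with quantile normalization or a fit of the 4 libraries compared alone (adjusted p = 0.0514 to 0.0772). Sdhd lost it on leaving out either library of dKO LZ, or sKO LZ replicate 2 (adjusted p = 0.069 to 0.073). In the DZ the 4 differences lay between 0.02 and 0.11 and did not pass.

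Complex II was the complex with the largest share of genes lower in the LZ, at 3 of 4 in dKO cells and 3 of 4 in sKO cells. These shares stand beside 16.1% of all genes in each genotype. The ranking rests on 4 genes, and of these calls only those of Sdhb held under every setting. The median differences were -0.16 in dKO cells and -0.21 in sKO cells. Sdhb had 142 and 142 FPKM in dKO LZ and 185 and 178 in dKO DZ (difference -0.35 ± 0.06, adjusted p = 0.00516). In sKO cells it had 141 and 131 FPKM in LZ and 171 and 187 in DZ (difference -0.39 ± 0.06, adjusted p = 0.00421). All 4 LZ libraries were below all 4 DZ libraries, and both calls held without any single library and under every other setting tried. Sdhc was lower in the LZ by 0.17 in dKO cells (adjusted p = 0.0481) and 0.27 in sKO cells (adjusted p = 0.0121). Sdha was lower by 0.15 in dKO cells (adjusted p = 0.0189) and 0.12 in sKO cells (adjusted p = 0.044). Sdha lost its call between the zones of dKO cells on leaving out either library of dKO LZ or dKO DZ (adjusted p = 0.0674 to 0.121). Sdhc lost it on leaving out either library of dKO LZ, dKO DZ or sKO DZ (adjusted p = 0.0678 to 0.198) and with the replicate block, no filter or no intensity trend (adjusted p = 0.0662 to 0.0711). Sdha lost its call between the zones of sKO cells on leaving out any 1 of the 8 libraries (adjusted p = 0.0505 to 0.148) and with the replicate block, a mean of at least 5 FPKM, quantile normalization, no intensity trend or a fit of the 4 libraries compared alone (adjusted p = 0.0504 to 0.167). Sdhc lost it on leaving out sKO DZ replicate 2 (adjusted p = 0.0608) and with a fit of the 4 libraries compared alone (adjusted p = 0.0581). Sdhd did not pass in either (differences 0.02 ± 0.06 and -0.14 ± 0.06).

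Complex III, the cytochrome bc1 complex, has 8 genes under the rule. In dKO LZ cells 3 rose (37.5%, beside 18.4% of all genes) and 0 fell, with a median of 0.18. Uqcrq, a small subunit next to the ubiquinone site, had 143 and 144 FPKM in dKO LZ and 118 and 109 in sKO LZ, a difference of 0.33 ± 0.08 (adjusted p = 0.0239). Uqcr10, another small subunit, had 223 and 198 FPKM in dKO LZ and 174 and 170.0 in sKO LZ, a difference of 0.29 ± 0.07 (adjusted p = 0.0289). Uqcrc2, a core protein on the matrix side, had 114 and 110.2 FPKM in dKO LZ and 96.7 and 99.5 in sKO LZ, a difference of 0.19 ± 0.05 (adjusted p = 0.029). For all 3 the genotypes did not overlap in LZ, which adds no support to calls from the same libraries. Uqcrq lost its call in LZ on leaving out either library of dKO LZ, or sKO LZ replicate 2 (adjusted p = 0.0936 to 0.102) and with quantile normalization (adjusted p = 0.056). Uqcr10 lost it on leaving out either library of sKO LZ, or dKO LZ replicate 1 (adjusted p = 0.0712 to 0.136) and with no filter or quantile normalization (adjusted p = 0.0555 to 0.0767). Uqcrc2 lost it on leaving out either library of dKO LZ or sKO LZ (adjusted p = 0.0635 to 0.141) and with upper quartile scaling, quantile normalization or no intensity trend (adjusted p = 0.0507 to 0.159). With quantile normalization 0 complex III genes passed by limma. Uqcrfs1, the Rieske iron-sulfur protein, had 71.4 and 75.4 FPKM in dKO LZ and 75.2 and 67.3 in sKO LZ (difference 0.05 ± 0.06), with overlapping libraries.

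Of the complex III genes, Uqcrc1, the other core protein, was lower in the LZ of both genotypes. It had 96.5 and 90.7 FPKM in dKO LZ and 119 and 117 in dKO DZ (difference -0.33 ± 0.08, adjusted p = 0.0169), and 88.3 and 77.9 in sKO LZ and 105 and 116 in sKO DZ (difference -0.41 ± 0.08, adjusted p = 0.00898). Its LZ libraries all lay below its DZ libraries. Uqcrb, a small subunit bound to the ubiquinone site, was higher in the LZ of both. It had 156 and 150.3 FPKM in dKO LZ and 133 and 127 in dKO DZ (difference 0.24 ± 0.06, adjusted p = 0.0288), and 133 and 151 in sKO LZ and 112 and 112 in sKO DZ (difference 0.34 ± 0.06, adjusted p = 0.00987). Uqcrc2 was lower in the LZ of sKO cells by 0.18 (adjusted p = 0.0377), and had a difference of -0.01 ± 0.05 in dKO cells. Uqcrc1 lost its call between the zones of dKO cells on leaving out either library of dKO DZ, or dKO LZ replicate 2 (adjusted p = 0.0655 to 0.0926). Uqcrb lost it on leaving out either library of dKO LZ or dKO DZ (adjusted p = 0.0769 to 0.14) and with no filter (adjusted p = 0.0506). Uqcrc2 lost its call between the zones of sKO cells on leaving out either library of dKO LZ, sKO LZ or dKO DZ, or sKO DZ replicate 2 (adjusted p = 0.0582 to 0.148) and with no filter, quantile normalization, no intensity trend or a fit of the 4 libraries compared alone (adjusted p = 0.055 to 0.109). The median of the 8 genes between the zones of sKO cells was -0.03 and changed sign with quantile normalization (0.03) and without sKO DZ replicate 2 (0.05).

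Complex IV holds general subunits made in every tissue and isoforms of particular tissues. In dKO LZ cells 3 of its 14 tested genes rose and 1 fell, or 21.4% and 7.14%, beside 18.4% and 12.7% of all genes. The share of rises was thus near that of all genes. All 11 general subunits were positive in LZ, with a median of 0.17. Cox5a, which sits on the matrix side, had 244 and 236 FPKM in dKO LZ and 191 and 195 in sKO LZ, a difference of 0.31 ± 0.07 (adjusted p = 0.0205). Cox7a2, the COX7A form found in most tissues, had 113 and 122 FPKM in dKO LZ and 96.2 and 99.4 in sKO LZ, a difference of 0.26 ± 0.05 (adjusted p = 0.011). Cox7b, a small membrane subunit, was named after its values were seen and rose by 0.23 (adjusted p = 0.0144). Cox5a lost its call in LZ on leaving out either library of dKO LZ or sKO LZ (adjusted p = 0.062 to 0.102) and with quantile normalization (adjusted p = 0.0547). Cox7a2 lost it on leaving out dKO LZ replicate 2 (adjusted p = 0.0592) and with quantile normalization (adjusted p = 0.0829). Cox7b lost it on leaving out either library of dKO LZ (adjusted p = 0.0608 to 0.0763). With quantile normalization 1 complex IV gene rose in place of 3. Cox4i1, a regulatory subunit, had 424 and 418 FPKM in dKO LZ and 415 and 373 in sKO LZ (difference 0.10 ± 0.06). Cox5b, a zinc-binding subunit, had 244 and 256 FPKM in dKO LZ and 235 and 234 in sKO LZ (difference 0.09 ± 0.06). Their dKO libraries lay above the sKO ones in LZ, and neither passed the test. Ndufa4, first named as a complex I gene and since placed in complex IV, had 373 and 363 FPKM in dKO LZ and 309 and 325 in sKO LZ (difference 0.22 ± 0.07, adjusted p = 0.0635).

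Cox7a2l, also called Scaf1, is a relative of Cox7a2 described as a factor that joins complexes III and IV into supercomplexes. Whether its product does so in cells of this mouse strain was not tested. Cox7a2l was the one subunit gene that fell in dKO LZ cells, and it fell in dKO DZ cells too. In LZ it had 156 and 155 FPKM in dKO cells and 219 and 212 in sKO cells, a difference of -0.47 ± 0.04 (adjusted p = 0.00119). In DZ it had 262 and 252 FPKM in dKO cells and 293 and 306 in sKO cells, a difference of -0.22 ± 0.04 (adjusted p = 0.0234). The 4 groups did not overlap: dKO LZ was lowest, then sKO LZ, then dKO DZ, and sKO DZ was highest. It was lower in the LZ than in the DZ by 0.72 in dKO cells (adjusted p = 0.000135) and 0.47 in sKO cells (adjusted p = 0.000672). Its interaction was -0.25 ± 0.06 (adjusted p = 0.336). The LZ call and both zone calls held without any single library and under every other setting tried. Cox7a2l lost its call in DZ on leaving out either library of dKO LZ or dKO DZ, or sKO DZ replicate 2 (adjusted p = 0.0559 to 0.15) and with a fit of the 4 libraries compared alone (adjusted p = 0.0705).

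The makeup of the COX7A genes moved with the fall of Cox7a2l and the rise of Cox7a2. Cox7a2l made up 57.4% and 55.0% of their summed FPKM in dKO LZ, 69.1% and 67.0% in sKO LZ, 70.7% and 69.5% in dKO DZ, and 73.8% in each sKO DZ library. Cox7a2 made up 41.5% and 43.5% in dKO LZ, 30.4% and 31.4% in sKO LZ, 28.4% and 30.1% in dKO DZ, and 25.4% in each sKO DZ library. Cox7a1, the heart and muscle form, stayed at 1.59% or less. The dKO LZ libraries thus held the lowest share of Cox7a2l of the 8.

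**Figure D4:**
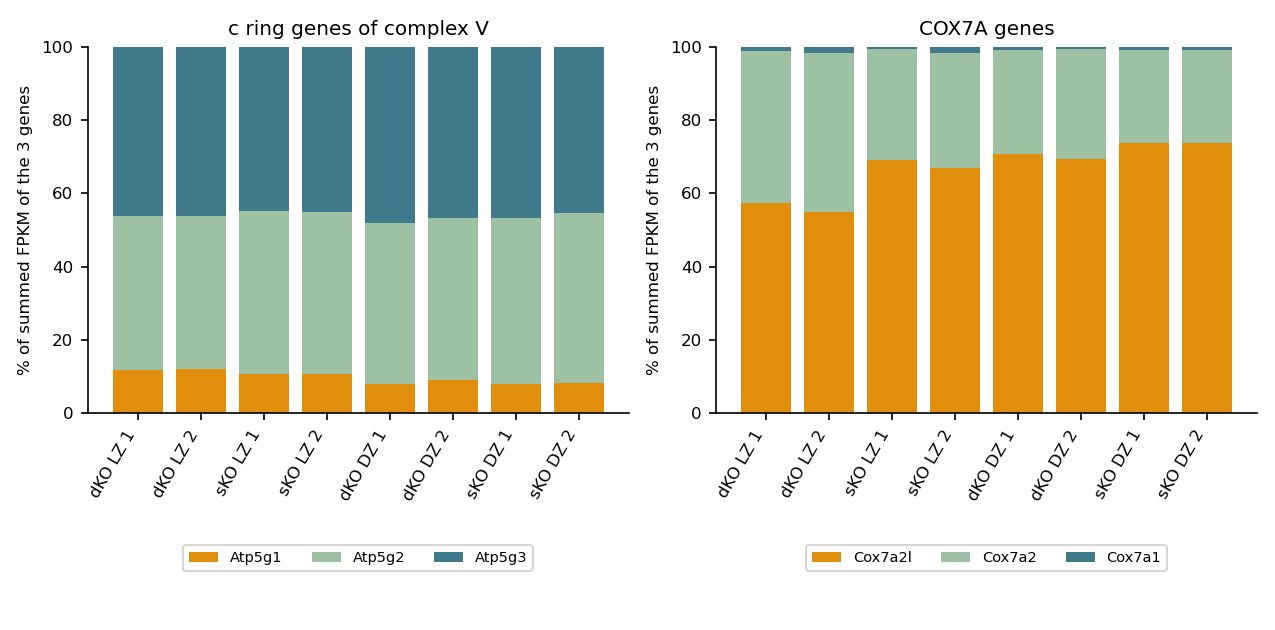
Share of each paralogue in the summed FPKM of the 3 c ring genes of complex V (left) and of the 3 COX7A genes (right), for each of the 8 libraries. Cox7a2l takes 55.0% to 57.4% in dKO LZ and 67.0% to 73.8% in the other libraries; Atp5g1 takes 11.8% to 12.01% in dKO LZ and 10.6% to 10.7% in sKO LZ.

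Of the other complex IV isoforms, Cox6b2, known as a testis form, differed between the zones. It had 0.747 and 0.778 FPKM in dKO LZ and 3.30 and 4.2 in dKO DZ, and 0.739 and 0.706 in sKO LZ and 3.36 and 3.23 in sKO DZ. It passed the filter on low values only through its DZ libraries and so had to differ. The differences between LZ and DZ were -1.42 ± 0.11 in dKO cells and -1.32 ± 0.11 in sKO cells. It made up between 0.21% and 0.22% of Cox6b1 and Cox6b2 together in the LZ libraries and between 0.77% and 1.05% in the DZ libraries. Cox7a1 had 3.19 and 4.43 FPKM in dKO LZ, 1.75 and 5.03 in sKO LZ, 3.52 and 1.60 in dKO DZ and 3.24 and 3.30 in sKO DZ, with libraries of 1 group as far apart as the groups. Cox4i2, Cox6a2, Cox8b and Ndufa4l2 stayed at or under 0.41 FPKM in all 8 libraries, and Cox7b2 and Cox8c were listed at 0 in each. Their partners Cox4i1, Cox6a1, Cox8a and Ndufa4 supplied nearly all of the transcript of each pair.

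Between the zones, the general subunits Cox6a1 and Cox8a were lower in the LZ of sKO cells. Cox6a1 had 348 and 292 FPKM in sKO LZ and 377 and 452 in sKO DZ (difference -0.37 ± 0.11, adjusted p = 0.0455). Cox8a had 288 and 279.5 FPKM in sKO LZ and 316 and 365 in sKO DZ (difference -0.26 ± 0.07, adjusted p = 0.0314). In both genes sKO DZ replicate 2 was the highest library of the 4. In dKO cells their differences were -0.22 ± 0.11 and -0.12 ± 0.07 (adjusted p = 0.171 and 0.221). Cox6a1 lost its call between the zones of sKO cells on leaving out either library of dKO LZ or dKO DZ, sKO LZ replicate 2, or sKO DZ replicate 2 (adjusted p = 0.0677 to 0.184) and with the replicate block, no filter, no intensity trend or a fit of the 4 libraries compared alone (adjusted p = 0.0582 to 0.111). Cox8a lost it on leaving out either library of dKO LZ, sKO LZ or dKO DZ, or sKO DZ replicate 2 (adjusted p = 0.0556 to 0.12) and with no filter or a fit of the 4 libraries compared alone (adjusted p = 0.0583 to 0.102). Cox6b1, on the intermembrane space side, had differences of -0.09 ± 0.07 in dKO cells and -0.21 ± 0.07 in sKO cells, neither past the threshold.

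Complex V, the ATP synthase, had the largest share of calls in LZ. Of its 15 genes, 10 rose in dKO LZ cells (66.7%, beside 18.4% of all genes), 0 fell and all 15 were positive, with a median of 0.21. All 3 c ring genes and all 4 peripheral stalk genes rose, as did 2 of 5 genes of the F1 head and central stalk and 1 of 3 supernumerary membrane genes. Upper quartile scaling left 7 higher and quantile normalization 6. Leaving out a single library gave between 4 and 10.

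The c ring is the rotor that the protons turn, and 3 genes encode the same mature c protein with different import signals. Atp5g1 had 134 and 134 FPKM in dKO LZ and 99.8 and 96.7 in sKO LZ, a difference of 0.45 ± 0.08 (adjusted p = 0.00906). Atp5g2 had 479 and 467 FPKM in dKO LZ and 421 and 399 in sKO LZ, a difference of 0.21 ± 0.06 (adjusted p = 0.042). Atp5g3 had 526 and 513 FPKM in dKO LZ and 421 and 408 in sKO LZ, a difference of 0.33 ± 0.05 (adjusted p = 0.00379). None of the 3 overlapped between genotypes in LZ, which adds no support to calls from the same libraries. Atp5g1 lost its call in LZ on leaving out dKO LZ replicate 1 (adjusted p = 0.05). Atp5g2 lost it on leaving out either library of dKO LZ, sKO LZ or dKO DZ (adjusted p = 0.0594 to 0.171) and with the replicate block, no filter, upper quartile scaling, quantile normalization or no intensity trend (adjusted p = 0.0606 to 0.18). Atp5g1 was the least abundant of the 3 and the one that separated the zones. It had 79.5 and 91.1 FPKM in dKO DZ and 72.5 and 82.5 in sKO DZ, so that it was higher in the LZ by 0.65 in dKO cells (adjusted p = 0.0019) and 0.34 in sKO cells (adjusted p = 0.0223). Atp5g1 lost its call between the zones of sKO cells on leaving out either library of sKO LZ, or sKO DZ replicate 1 (adjusted p = 0.0671 to 0.0886). Atp5g1 made up 11.8% and 12.01% of the summed c ring FPKM in dKO LZ, 10.6% and 10.7% in sKO LZ, 7.86% and 8.97% in dKO DZ, and 8.02% and 8.33% in sKO DZ.

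The F1 head makes ATP from 3 copies each of the alpha and beta subunits around the gamma shaft. Atp5b, the catalytic beta subunit, had 562 and 552 FPKM in dKO LZ, 462 and 435 in sKO LZ, 617 and 609.7 in dKO DZ and 551 and 577 in sKO DZ. The sKO LZ libraries were the lowest, and the difference in LZ was 0.31 ± 0.05 (adjusted p = 0.00431). Atp5a1, the alpha subunit, had 364 and 363 FPKM in dKO LZ and 328 and 303 in sKO LZ, a difference of 0.20 ± 0.05 (adjusted p = 0.0197). In the DZ it had 445 and 433 FPKM in dKO cells and 404 and 408 in sKO cells, so that it was lower in the LZ by 0.27 in dKO cells (adjusted p = 0.00595) and 0.36 in sKO cells (adjusted p = 0.00245). Atp5b was lower in the LZ of sKO cells by 0.33 (adjusted p = 0.00331), and its difference in dKO cells was -0.14 ± 0.05 (adjusted p = 0.0587). Atp5c1, the gamma subunit, had 229 and 221 FPKM in dKO LZ and 209 and 209.7 in sKO LZ (difference 0.10 ± 0.04, adjusted p = 0.0804). It was higher in the LZ of dKO cells, by 0.13 (adjusted p = 0.0361). Atp5a1 lost its call in LZ on leaving out either library of dKO LZ, or sKO LZ replicate 2 (adjusted p = 0.063 to 0.0968) and with quantile normalization or a fit of the 4 libraries compared alone (adjusted p = 0.0544 to 0.186). Atp5c1 lost its call between the zones of dKO cells on leaving out either library of dKO LZ or dKO DZ (adjusted p = 0.0792 to 0.192) and with the replicate block, quantile normalization or no intensity trend (adjusted p = 0.0636 to 0.103).

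The peripheral stalk holds the head still against the turning ring. Atp5o, which encodes the subunit that ties the stalk to the head (OSCP), had 222 and 219.7 FPKM in dKO LZ and 172 and 177 in sKO LZ, a difference of 0.34 ± 0.03 (adjusted p = 0.00161). In the DZ the genotypes overlapped, with 192 and 194 FPKM in dKO cells and 193 and 196 in sKO cells (difference -0.01 ± 0.03). Its dKO LZ libraries were above and its sKO LZ libraries below all 4 DZ libraries. Atp5o was thus higher in the LZ of dKO cells by 0.19 (adjusted p = 0.00706) and lower in the LZ of sKO cells by 0.15 (adjusted p = 0.0177). The interaction was 0.34 ± 0.05 (adjusted p = 0.207), which did not pass. Atp5o lost its call between the zones of dKO cells on leaving out dKO LZ replicate 1 or dKO DZ replicate 1 (adjusted p = 0.0509 to 0.0575) and with quantile normalization (adjusted p = 0.0571). Atp5o lost its call between the zones of sKO cells on leaving out sKO LZ replicate 1 or sKO DZ replicate 2 (adjusted p = 0.0553 to 0.0634) and with quantile normalization or a fit of the 4 libraries compared alone (adjusted p = 0.111 to 0.152). The other stalk genes, Atp5f1, Atp5h and Atp5j, named after their values were seen, rose in dKO LZ cells by between 0.19 and 0.24. Atp5j2, a small membrane subunit near the stalk, had 274 and 272 FPKM in dKO LZ and 221 and 214 in sKO LZ, a difference of 0.33 ± 0.06 (adjusted p = 0.00758). Atp5f1 lost its call in LZ on leaving out dKO LZ replicate 1 (adjusted p = 0.0834) and with quantile normalization (adjusted p = 0.0501). Atp5h lost it on leaving out either library of sKO LZ, or dKO LZ replicate 1 (adjusted p = 0.0559 to 0.12) and with upper quartile scaling or a fit of the 4 libraries compared alone (adjusted p = 0.0519 to 0.0531). Atp5j lost it on leaving out either library of dKO LZ, sKO LZ or dKO DZ (adjusted p = 0.0506 to 0.183) and with no filter, upper quartile scaling, quantile normalization or no intensity trend (adjusted p = 0.0658 to 0.173).

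**Figure D5:**
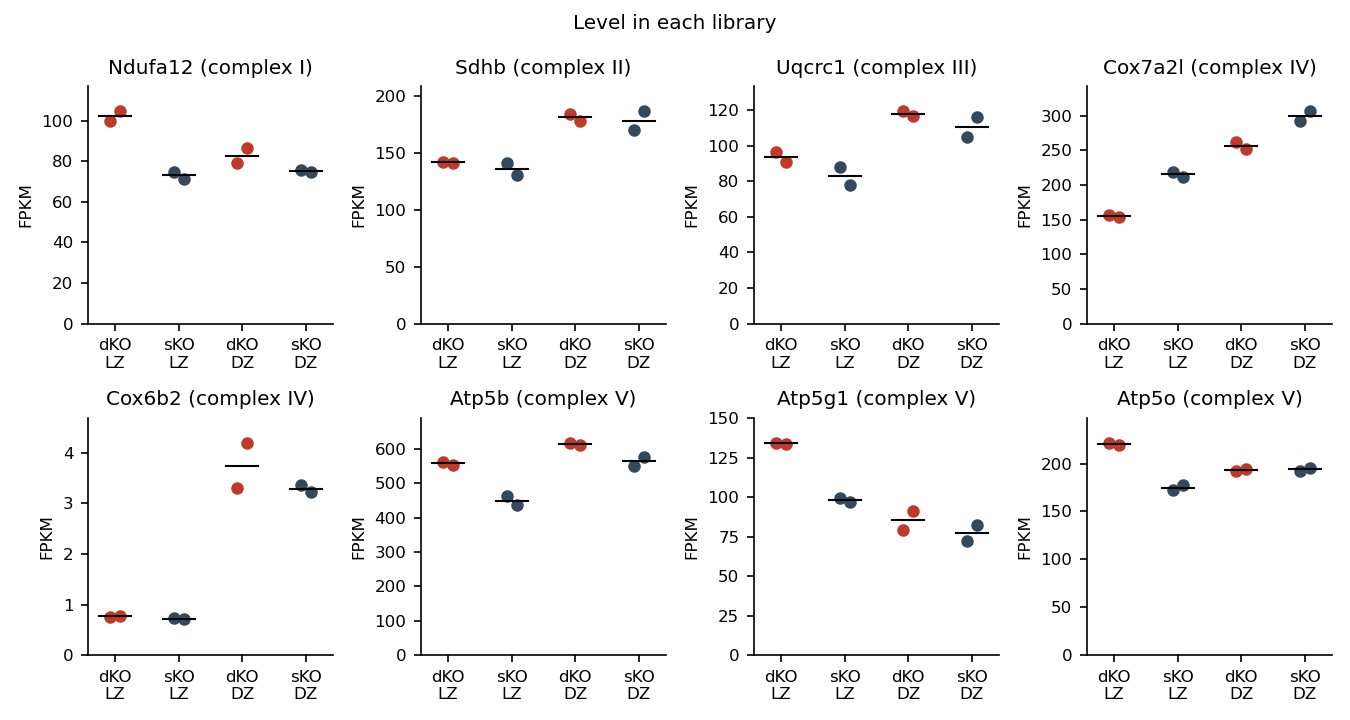
FPKM in each of the 8 libraries (points, red for dKO and dark for sKO) and the mean of each group (lines) for 8 respiratory chain genes; each axis starts at 0. Ndufa12, Atp5g1 and Atp5o are highest in dKO LZ, Cox7a2l is lowest there, and Sdhb and Uqcrc1 separate the LZ from the DZ in both genotypes. Cox6b2 passed the filter on low values only through its DZ libraries and so had to differ between the zones.

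Of the 3 genes that match by name and encode no subunit, Atp5sl fell in dKO cells of both zones. Its product, also called Dmac2, helps to assemble the membrane arm of complex I in human cells. It had 11.4 and 10.3 FPKM in dKO LZ and 17.3 and 17.8 in sKO LZ, a difference of -0.65 ± 0.08 (adjusted p = 0.00271), the largest in size among the 79 genes in LZ. In DZ it had 17.0 and 16.8 FPKM in dKO cells and 20.04 and 23.5 in sKO cells, a difference of -0.34 ± 0.08 (adjusted p = 0.0455). The genotypes did not overlap in either zone, which adds no support to calls from the same libraries. It was lower in the LZ than in the DZ by 0.60 in dKO cells (adjusted p = 0.00262) and 0.29 in sKO cells (adjusted p = 0.0391). Atp5sl lost its call in DZ on leaving out either library of dKO LZ, sKO LZ or dKO DZ, or sKO DZ replicate 2 (adjusted p = 0.061 to 0.185) and with the replicate block, no filter, no intensity trend or a fit of the 4 libraries compared alone (adjusted p = 0.0581 to 0.0809). Atp5sl lost its call between the zones of sKO cells on leaving out either library of sKO LZ or dKO DZ, or sKO DZ replicate 2 (adjusted p = 0.0683 to 0.149) and with the replicate block, no filter or a fit of the 4 libraries compared alone (adjusted p = 0.0615 to 0.0881). Atp5s, which encodes coupling factor B, and Cox4nb, which encodes a subunit of the ER membrane complex, passed in none of the 4 comparisons and are named here after their values were seen.

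Promoters were read for the genes in which the sets described above moved together or apart, the 3 c ring genes and Atp5o, which rose in dKO LZ cells, and Cox7a2l, which fell. Each is RefSeq's window of 300 bases on the coding strand, from 250 bases before the annotated start to 50 after it, in build GRCm38.p6, which is not the build of the expression table. Capitals mark matches, on either strand, to a consensus of NRF1 or to CCGGAAG (the ETS and GABP core). They also mark CACGTG (the E-box of MYC) and TGANTCA (the site type bound by BACH and AP-1 proteins). The NRF1 consensus searched leaves a base free, so a match need not be a palindrome.
Atp5g1 (chromosome 11): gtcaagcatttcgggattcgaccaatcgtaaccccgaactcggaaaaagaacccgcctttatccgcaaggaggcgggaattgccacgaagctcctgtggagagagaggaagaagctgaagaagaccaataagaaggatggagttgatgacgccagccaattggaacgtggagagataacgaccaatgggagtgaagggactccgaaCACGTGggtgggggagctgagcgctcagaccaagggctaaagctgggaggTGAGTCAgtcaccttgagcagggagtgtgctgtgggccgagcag
Atp5g2 (chromosome 15): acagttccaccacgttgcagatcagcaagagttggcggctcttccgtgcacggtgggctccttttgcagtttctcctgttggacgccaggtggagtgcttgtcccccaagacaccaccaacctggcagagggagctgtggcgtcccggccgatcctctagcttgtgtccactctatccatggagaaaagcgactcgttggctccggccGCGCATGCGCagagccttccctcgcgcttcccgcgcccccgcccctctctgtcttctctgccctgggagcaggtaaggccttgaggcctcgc
Atp5g3 (chromosome 2): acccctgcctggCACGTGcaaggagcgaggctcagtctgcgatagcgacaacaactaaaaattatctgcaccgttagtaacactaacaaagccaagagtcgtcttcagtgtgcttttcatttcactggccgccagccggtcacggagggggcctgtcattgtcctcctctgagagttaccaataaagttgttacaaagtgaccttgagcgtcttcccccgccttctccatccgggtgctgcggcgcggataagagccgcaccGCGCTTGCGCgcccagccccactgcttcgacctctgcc
Atp5o (chromosome 16): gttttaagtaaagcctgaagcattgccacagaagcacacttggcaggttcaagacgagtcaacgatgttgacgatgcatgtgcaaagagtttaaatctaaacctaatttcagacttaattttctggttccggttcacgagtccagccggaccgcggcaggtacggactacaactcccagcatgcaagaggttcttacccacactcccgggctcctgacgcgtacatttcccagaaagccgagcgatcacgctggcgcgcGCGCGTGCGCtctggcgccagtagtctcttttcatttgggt
Cox7a2l (chromosome 17): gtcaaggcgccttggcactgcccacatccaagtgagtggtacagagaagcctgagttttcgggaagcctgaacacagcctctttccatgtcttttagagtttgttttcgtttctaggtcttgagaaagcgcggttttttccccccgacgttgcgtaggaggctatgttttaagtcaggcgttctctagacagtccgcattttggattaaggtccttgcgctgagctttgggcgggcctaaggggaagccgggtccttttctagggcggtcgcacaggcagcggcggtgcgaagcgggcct
The window of Atp5g1 holds an E-box match and a TGANTCA match, that of Atp5g2 an NRF1 match, that of Atp5g3 an E-box and an NRF1 match and that of Atp5o an NRF1 match. The letters searched are not in the window of Cox7a2l. The genes shown were chosen with their results known, and they do not stand for all that rose or fell. Other genes that rose in dKO LZ cells had windows with a match (Ndufa5 and Ndufb4) or with none (Ndufa12, Atp5b and Atp5j2). The window of Atp5sl, which fell, holds an E-box match. Whether matches go with a rise or a fall was not tested.

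A RefSeq window was found for 69 of the 85 genes. NRF1 is a transcription factor long known for its sites in genes of the respiratory chain, and its letters were in 23.2% of these 69 windows, in 11.9% of the windows of all genes tested and in 4.78% of 27025 windows in all. Among the tested genes, NRF1 letters were in 5 of 14 windows of complex V, 2 of 3 of complex II, 1 of 5 of complex III, 7 of 31 of complex I and 1 of 12 of complex IV. The ETS letters were in 21.7% of the 69 windows, 21.2% of those of genes tested and 9.12% of all. The E-box was in 10.1%, 10.8% and 7.24% in the same order. The TGANTCA letters were in 10.1% of the 69 windows, in 4.51% of those of genes tested and in 7.93% of all. A match is a run of letters and says nothing of binding.

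Genes that work beside the complexes were read from the same fit. Of 9 tested subunits and electron carriers outside the name rule, 5 rose in dKO LZ cells (55.6%, beside 18.4% of all genes) and 0 fell. The 5 were Cycs and Cyc1 (cytochromes c and c1), Ndufab1 (the acyl carrier of complex I), Usmg5 (a small ATP synthase subunit) and Etfa (which brings in electrons from fatty acid oxidation). Cycs, the carrier between complexes III and IV, had 47.8 and 47.8 FPKM in dKO LZ and 33.0 and 35.8 in sKO LZ, a difference of 0.46 ± 0.05 (adjusted p = 0.00221). It also rose in dKO DZ cells, with 35.4 and 36.9 FPKM and 29.1 and 30.8 in sKO DZ (difference 0.27 ± 0.05, adjusted p = 0.0287), which no subunit under the name rule did. Of 7 tested carriers of the mitochondrial membranes, 5 rose in LZ (71.4%, beside 18.4% of all genes) and 0 fell. Those that rose were Slc25a4 and Slc25a5, which exchange ADP and ATP, and the pores Vdac1, Vdac2 and Vdac3. In DZ 0 of the 7 passed by limma.

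Of the assembly factors, 2 of 9 tested for complex I rose in LZ (Ndufaf4 and Foxred1) and 5 of 21 for complexes II to V (Cox10, Taco1, Lrpprc, Atpaf2 and Tmem70), and 0 fell in either list. These are 22.2% and 23.8%, near the 18.4% of all genes. Atpaf2 and Tmem70 serve the ATP synthase, Cox10 makes the heme of complex IV, and Taco1 and Lrpprc act on mitochondrial transcripts and their translation. Taco1 and Lrpprc also rose in DZ. Of 17 TCA cycle genes, 6 rose in LZ (35.3%, beside 18.4% of all genes), among them Idh2, Idh3a and Mdh2, and 0 fell. Idh2, the NADP-linked isocitrate dehydrogenase, had 36.2 and 36.8 FPKM in dKO LZ and 25.7 and 24.3 in sKO LZ (difference 0.53 ± 0.05, adjusted p = 0.00107), and it rose in DZ as well (difference 0.35 ± 0.05, adjusted p = 0.00856). Between the zones, TCA cycle genes were lower in the LZ for 5 of 17 in dKO cells and 8 of 17 in sKO cells, with 1 and 0 higher. The lower ones are 29.4% and 47.1%, beside 16.1% of all genes in each genotype. Of 12 ubiquinone synthesis genes 3 rose (Coq2, Coq4 and Coq5) and 1 fell (Adck3) in LZ, beside 18.4% and 12.7% of all genes.

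Among regulators of mitochondrial biogenesis, 4 of 14 tested genes rose in LZ and 1 fell, or 28.6% and 7.14%, beside 18.4% and 12.7% of all genes. Pprc1, a member of the PGC-1 family that responds to growth signals, had 14.9 and 14.4 FPKM in dKO LZ, 8.99 and 8.02 in sKO LZ, 8.99 and 8.64 in dKO DZ and 5.87 and 6.01 in sKO DZ. It rose in both zones, by 0.72 in LZ (adjusted p = 0.00126) and 0.50 in DZ (adjusted p = 0.00901), and it was higher in the LZ than in the DZ of both genotypes. Ppargc1b, Tfb1m and Peo1 also rose in LZ, and Esrra, the estrogen-related receptor that works with PGC-1 proteins, fell (difference -0.24 ± 0.06, adjusted p = 0.0191). Nrf1, Gabpa and Tfam, the classic factors of this program, had differences of 0.05 ± 0.06, 0.13 ± 0.05 and 0.16 ± 0.07 in LZ and did not pass. Ppargc1a stayed under 1 FPKM in all libraries. These genes were read as lists and not tested as sets.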

How the data were processed

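RNA was sequenced from 8 libraries of sorted germinal centre B cells. The authors deposited 1 table of FPKM values per gene, 8 columns for the 8 samples, each matched to its sample by name. TopHat2 2.0.8, Cufflinks 2.1.1 and mm9 are named in the submitters' processing notes; their options and the gene annotation are not given in the sources used here. The filter asked for 1 FPKM or more in 2 or more libraries, log2(FPKM + 1) was computed, and 1 limma model (limma 3.58.1, R 4.3.3) with 4 group means and an intensity trend was fitted over all 10610 genes, with 4 residual and 2.46 prior degrees of freedom and Benjamini-Hochberg adjustment. The contrasts were dKO minus sKO in each zone, LZ minus DZ in each genotype, and their interaction. The fit was also run on simulated data as a check of the code. How well it recovers differences as small as those described here is not given.

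The genes named were, per complex and contrast, the 3 past the threshold with the largest change and at least 5 FPKM, a fixed list of core subunits, and the paralogue sets; exceptions are said to be so. The members and lists were chosen with earlier results of these data known. Alternatives were a pseudocount of 0.1, no filter, a mean of at least 5 FPKM, upper quartile scaling, quantile normalization, no intensity trend, a replicate block, a fit restricted to each comparison's own libraries, and omission of single libraries. Promoter windows came from RefSeq. A few items of the lists are not reported here.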

Additional observations from a re-analysis of the deposited data

How the results depend on the processing

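None of the respiratory chain genes called changed sign under an alternative in which it was tested (0 of 432 values in LZ, 0 of 48 in DZ, 0 of 303 between the zones of dKO cells and 0 of 271 between those of sKO cells). The count of genes that passed in LZ between genotypes was 27, and it was 16 with quantile normalization. In DZ it was 3, and it was 1 without the filter, 1 without the intensity trend and 0 in a fit of only the libraries compared. Between the zones that last fit gave 34 in place of 19 in dKO cells and 9 in place of 17 in sKO cells. Leaving out 1 library gave 11 to 36 in LZ, 0 to 2 in DZ, 8 to 25 between the zones of dKO cells and 10 to 23 between those of sKO cells. The interaction had 0 calls under every alternative run; a fit of only the libraries compared does not exist for it, since it uses all 8. The cause of these changes was not tested.

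Across genes, the replicate differences of the groups compared correlated at 0.10, -0.10, 0.06 and 0.12. No strong effect shared by the replicate numbers of the labels was thus seen. These values cannot show whether libraries of the same number came from the same pool. With the number as a replicate block the counts were 27 in LZ, 2 in DZ, 16 between the zones of dKO cells, 15 between those of sKO cells and 0 for the interaction. With 2 libraries in a group and no counts, neither the depth behind a value nor the spread between animals can be given.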
